A study of Mus with 4 samples.

Results

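RNA polymerase III subunits are described here in a murine podocyte cell line given lentiviral vectors for active OASIS or for Venus. The members are 9 genes, Polr3a, Polr3b, Polr3c, Polr3d, Polr3e, Polr3f, Polr3g, Polr3gl and Polr3k, of 26893 named genes on the array. They are read by 23 of its 56605 probes, found by their gene symbol. The members were proposed with the difference between OASIS and Venus already known, so that this difference is given for them as a description, with no p-value.

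RNA polymerase III transcribes short noncoding RNAs, among them tRNAs, 5S rRNA, U6, 7SK and 7SL RNA and the RNA parts of RNase P and RNase MRP. It is the largest of the nuclear RNA polymerases. Beside a catalytic core and subunits that it shares with RNA polymerases I and II, it carries a pair of subunits related to the initiation factor TFIIF, a subunit related to the elongation factor TFIIS, and a trimer used in initiation and promoter opening. Either of the paralogues Polr3g and Polr3gl fills a place in that trimer, and Polr3g is known from stem and proliferating cells whereas Polr3gl is found in most tissues.

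The study looked for genes downstream of OASIS, a membrane-bound transcription factor of the CREB3 family encoded by Creb3l1, in podocytes, the epithelial cells of the glomerular filter. From the arrays it took candidates for secreted proteins, which the polymerase subunits described here are not. An immortalised murine podocyte cell line was differentiated at nonpermissive temperature without interferon-γ, and then incubated for 24 h with lentivirus and polybrene in serum-containing medium. Venus, a fluorescent protein, was the control (2 samples), and the N-terminal, active fragment of Oasis/Creb3l1 was the test insert (2 samples), both from the pCSII-EF vector. Total RNA was taken 48 h after the vectors were added, and the samples were run on separate 1-colour Agilent arrays. All samples come from 1 cell line, the same RNA time point and forced expression of a truncated factor, which limits them as a model. The labels do not say that samples of a group were separate cultures, so the p-values below measure the spread between these samples, which may be technical. In such bulk RNA, fewer cells with a transcript and less of it per cell cannot be told apart.

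The 4 arrays shared 1 slide and 1 scan. Between 33938 and 34418 of 59305 non-control spots per array were well above background, and 0 were saturated. Values are log2 intensity relative to the 75th percentile of the array, so that 0 is the percentile itself and a difference of 1 is a 2-fold change. Levels of different probes are not compared, since probes differ in how well they bind. Testing was limited to probes well above background on each array of 1 group or more, that is 31598 probes of 16318 genes. A gene was represented by its brightest probe and was called past the limits at a fold over 2 or under 0.5 together with a limma adjusted p under 0.1. Over all genes tested the median log2 difference was -0.056. The single probe of Creb3l1 read 0.71 and 0.72 with Venus and 0.61 and 0.49 with OASIS (log2 fold change -0.17, standard error 0.10, limma adjusted p = 0.298). The stretch of the transcript that this probe reads was not analysed here, and it may lie outside the N-terminal insert, so its value does not check the labels. Of 8 podocyte markers, 6 were tested, and Nphs1, which encodes nephrin of the slit diaphragm, was not, since no probe of it met that filter. Of those tested, Wt1 and Cd2ap were past the limits upwards by their brightest probes, and their other probes were not. The summed linear level of the tested podocyte markers, to which Actn4 and Synpo contribute most and which says little of the dimmer ones, was 50.8 and 53.6 with Venus and 51.0 and 54.5 with OASIS. That of 5 tested markers of other kidney cells, of 10 on the array, was 5.43 and 6.02 against 7.12 and 8.36. Lrp2, a tubule marker whose probes disagree, was the only 1 of these 5 past the limits. Without Lrp2 that sum was 4.57 and 4.71 with Venus and 4.1 and 4.8 with OASIS. The part of other cells in the members' values was not tested.

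All 9 members passed the filter on dim signal, by 20 of their 23 probes. As a description only, the members past the limits are counted, beside the share over all genes or probes. By the brightest probe, Polr3d and Polr3k were past the limits upwards, where 6.21% of all genes tested were, and Polr3g was past them downwards, where 1.85% were. Counted by probe, 6 of the 20 were past the limits upwards, against 5.89% of all probes tested, and 1 was past them downwards, against 2.47%. These upward probes are both of Polr3d, both of Polr3k and the dimmer pair of the 3 probes of Polr3e. In the brightest probes, both OASIS arrays lay above both Venus arrays for 5 members, which 31.5% of all genes did, and below them for 2 members, which 39.4% did. The remaining 2 members, Polr3c and Polr3f, overlapped. By the methods' t-test in place of limma, 3 member probes were past the limits upwards, 1 each of Polr3d, Polr3e and Polr3k, against 1.74% of all probes tested, and 0 downwards, against 0.554%. Since the members were chosen on this contrast, nothing is read from these counts and shares.

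**Figure D1:**
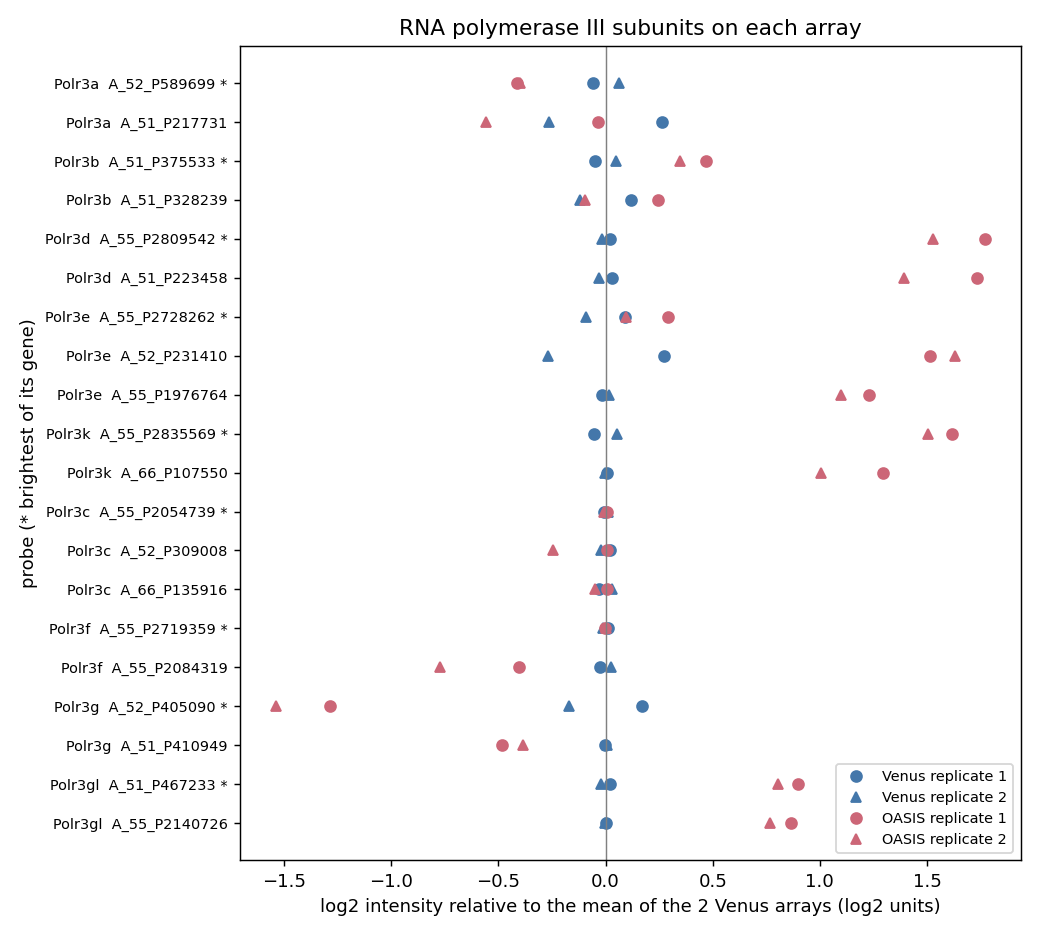
Log2 intensity of the 20 probes of 9 members that passed the filter on dim signal (rows, with the brightest probe of each gene marked by an asterisk) relative to the mean of the Venus arrays, with circles for replicate 1, triangles for replicate 2, blue for Venus and red for OASIS. The OASIS points of Polr3d and Polr3k lie more than 1 unit to the right on every probe, those of Polr3g lie to the left, and those of the brightest Polr3c and Polr3f probes lie on the Venus points.

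The catalytic core is formed by Polr3a and Polr3b, the largest subunits, which together hold the active site. They differed in opposite directions and by less than 2-fold. The brightest Polr3a probe (A_52_P589699, chromosome 14, band qA3) read 0.15 and 0.27 with Venus and -0.20 and -0.19 with OASIS. All OASIS values lay below all Venus values, and the difference of the means was -0.41 (Venus 0.21 ± 0.086, OASIS -0.20 ± 0.012, SD, n = 2 each). A second Polr3a probe, annotated to an Ensembl transcript, gave -4.60 and -5.13 against -4.90 and -5.42, and its groups overlapped. The other 2 probes of Polr3a, both annotated to cDNA clones, did not pass the filter. One was well above background on none of the arrays, and the other on the array of Venus replicate 2 alone, where it read -4.74 against -8.34, -7.96 and -8.35 on the others.

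Polr3b (chromosome 10, band qC1) lay higher with OASIS on its brightest probe, A_51_P375533. It read -0.42 and -0.32 with Venus and 0.10 and -0.02 with OASIS, which do not overlap, and the means differed by 0.41 (Venus -0.37 ± 0.070, OASIS 0.037 ± 0.087, SD, n = 2 each). Its dimmer probe reads the same RefSeq transcript and gave -3.70 and -3.94 against -3.58 and -3.92. Those groups overlapped, with a difference of 0.073 that was -0.097 without OASIS replicate 1.

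Polr3d and Polr3e form the TFIIF-like pair, which docks on the core and takes part in initiation and termination. Polr3d (chromosome 14, band qD2) had the largest difference of the members. Its brightest probe, A_55_P2809542, read 0.86 and 0.82 with Venus and 2.61 and 2.37 with OASIS. The groups were 1.51 log2 units apart at their nearest values. The means were 0.84 ± 0.026 and 2.49 ± 0.17 (SD, n = 2 each), a difference of 1.65 or 3.14-fold. The second Polr3d probe, of the same transcript, read 0.58 and 0.51 with Venus and 2.28 and 1.94 with OASIS, 2.96-fold higher with OASIS. In both probes the OASIS replicates differed more from each other than the Venus replicates did, and OASIS replicate 1 was the higher.

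The probes of Polr3e (chromosome 7, band qF2) disagreed, although all 3 are annotated to the same RefSeq transcript. The brightest, A_55_P2728262, read 2.24 and 2.06 with Venus and 2.44 and 2.24 with OASIS. Its groups were parted by only 0.0041, and the means differed by 0.19. A_55_P1976764 read -0.91 and -0.88 with Venus and 0.34 and 0.20 with OASIS, 2.24-fold higher with OASIS. The dimmest probe, A_52_P231410, read -3.55 and -4.09 with Venus and -2.31 and -2.19 with OASIS, a difference of 1.57 or 2.97-fold. Polr3e is therefore past the limits by 2 of its probes and short of them by the probe that represents it. Over its probes the mean difference was 0.98, just short of 2-fold. Where on the transcript each probe lies was not analysed here.

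Polr3k is the small TFIIS-like subunit that cleaves RNA in a stalled polymerase and acts in termination and reinitiation. On A_55_P2835569 (chromosome 2, band qH4) it read -0.05 and 0.06 with Venus and 1.62 and 1.51 with OASIS. The means were 0.0023 ± 0.077 and 1.56 ± 0.080 (SD, n = 2 each), which is 2.95-fold higher with OASIS. The second probe read -0.87 and -0.87 against 0.43 and 0.14, 2.22-fold higher. On both probes the OASIS arrays stood more than 1 log2 unit above the Venus arrays.

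Polr3c, Polr3f and either Polr3g or Polr3gl make up the initiation trimer, and its members did not share a direction. Polr3c (chromosome 3, band qF2.1) had the smallest differences. Its brightest probe, A_55_P2054739, read 1.35 and 1.37 with Venus and 1.37 and 1.35 with OASIS, with a difference of -0.00032. The other Polr3c probes differed by -0.021 and -0.12, and all 3 overlapped between the groups.

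Polr3f (chromosome 2, band qG1) gave another case of probes that disagree. The brightest, A_55_P2719359, is annotated to an Ensembl transcript and read -1.21 and -1.23 with Venus and -1.22 and -1.22 with OASIS. These values overlapped. The probe of the RefSeq transcript, A_55_P2084319, read -1.84 and -1.78 with Venus and -2.22 and -2.58 with OASIS, a difference of -0.59 with all OASIS values below all Venus values. A probe of a further Ensembl transcript was well above background on the array of Venus replicate 1 alone and did not pass the filter. The Polr3f probes thus read different annotated transcripts, and whether these were expressed differently was not tested.

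Polr3g and Polr3gl encode paralogues for the same place in the trimer and differed in opposite directions. Polr3g (chromosome 13, band qC3) read -1.27 and -1.61 with Venus and -2.72 and -2.98 with OASIS on its brightest probe, A_52_P405090. The means were -1.44 ± 0.24 and -2.85 ± 0.18 (SD, n = 2 each), which is 2.66-fold lower with OASIS. Its second probe, A_51_P410949, of the same transcript, read -2.11 and -2.10 against -2.58 and -2.49. There the OASIS values were also the lower, by -0.43, or 1.35-fold. By the mean of both probes the difference was -0.92, short of 2-fold. Without Venus replicate 1 the second probe becomes the brightest, and Polr3g is then not past the limits.

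Polr3gl (chromosome 3, band qF2.1, the band that also holds Polr3c) was higher with OASIS by both probes. A_51_P467233 read 0.57 and 0.53 with Venus and 1.45 and 1.36 with OASIS, with means of 0.55 ± 0.032 and 1.40 ± 0.066 (SD, n = 2 each). That is 1.81-fold, short of the limit of 2. A_55_P2140726 read -2.71 and -2.72 against -1.85 and -1.95, 1.76-fold higher. Its groups too were well apart, by 0.77.

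Within each array, the log2 value of Polr3gl was set against that of Polr3g for the 4 pairs of probes, relative to the Venus mean, so that array scaling cancels. With the stronger Polr3g probe, the balance was 2.19 and 2.35 on the OASIS arrays by A_51_P467233 and 2.15 and 2.31 by A_55_P2140726. With the weaker Polr3g probe it was 1.38 and 1.19, and 1.35 and 1.15. The Venus arrays lay within 0.17 of 0 in every pair. With the deposited background correction, the shift was thus between 2.38-fold and 4.81-fold towards Polr3gl. Its size depended on the Polr3g probe more than on the Polr3gl probe. Background correction does not cancel as array scaling does. With normexp background correction, the difference of A_55_P2140726 was 0.63 in place of 0.82. That of A_51_P410949 was -0.30 in place of -0.43, which puts this pair below 2.38-fold. A ratio of this kind shows unequal change and gives no molar ratio of the paralogues.

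**Figure D2:**
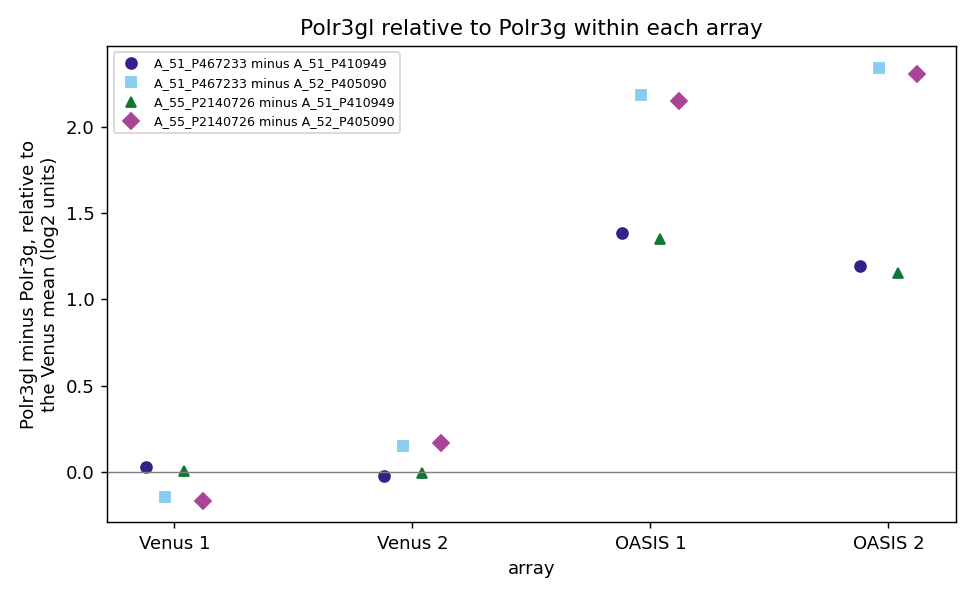
Log2 value of Polr3gl minus that of Polr3g on each array (horizontal axis), relative to the Venus mean of the same pair, with 1 symbol for each of the 4 probe pairs. The Venus arrays lie within 0.17 of 0, and the OASIS arrays lie between 1.15 and 2.35.

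The values were recomputed under 15 other settings. Of these, 8 can move a difference, namely quantile and median scaling, normexp, keeping outlier spots and leaving out each array. The other 7, which change the filter, the test or its limit, or take the authors' single scaling factor per array, leave every difference as it is. Polr3d stayed between 1.53 and 1.77 on its brightest probe and between 1.39 and 1.73 on the other. For Polr3k the ranges were 1.48 to 1.62 and 1.01 to 1.30. Polr3g ran from -1.58 to -1.07 on A_52_P405090 and from -0.48 to -0.30 on A_51_P410949. On Polr3e the dimmest probe ran from 0.97 to 1.84, and it was lowest, below 2-fold, with the normexp background correction. Polr3gl ran from 0.81 to 0.90 and from 0.63 to 0.87, short of 2-fold throughout.

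**Figure D3:**
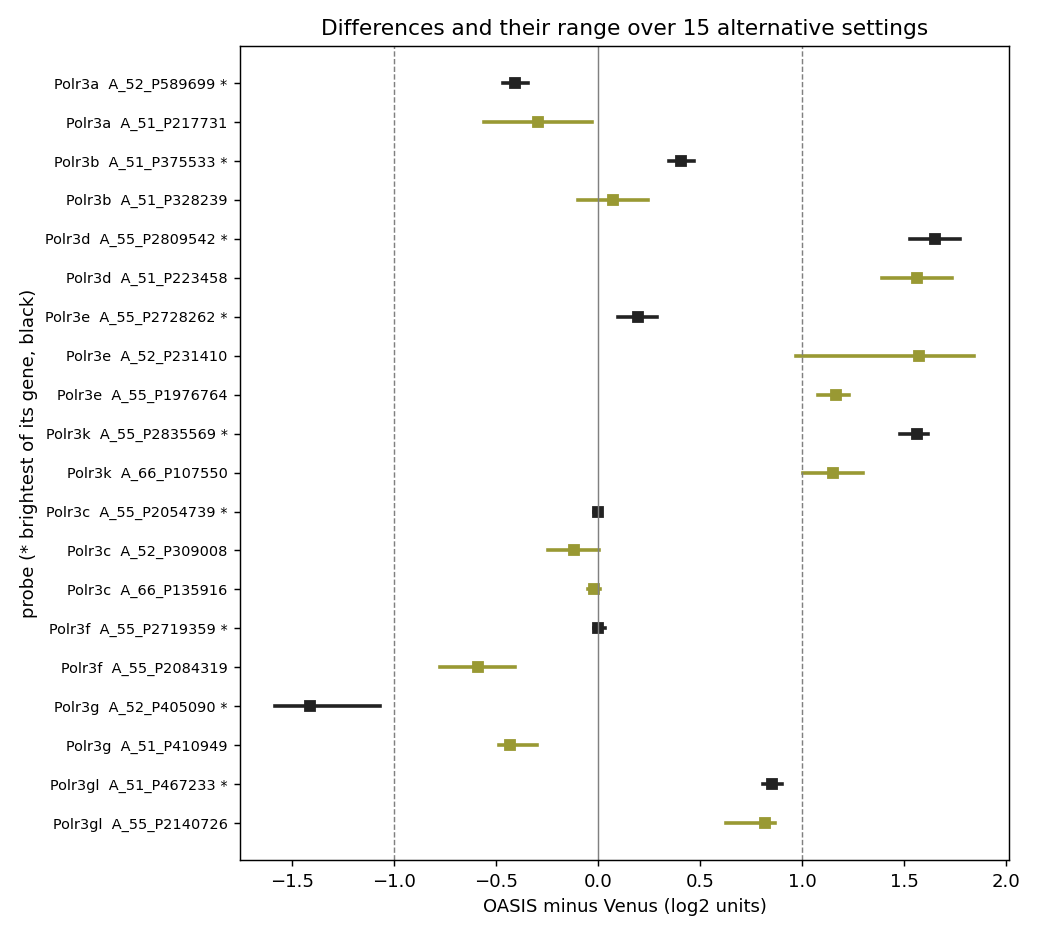
Difference between the group means, OASIS minus Venus, for the 20 probes that passed the filter (squares, in log2 units, black for the brightest probe of a gene) with a line from the lowest to the highest value over 15 alternative settings, of which 8 can move it, and dashed lines at 2-fold. Polr3d and Polr3k stay at or right of the upper dashed line, Polr3g by A_52_P405090 stays left of the lower one, and Polr3gl stays inside.

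The 7 subunits that RNA polymerase III shares with polymerase I, or with I and II, gave 0 calls in either direction. Of all genes tested, 6.21% were called higher and 1.85% lower, so few calls would be looked for in lists this short. The same holds for the subunits of polymerases I and II below. At an unadjusted limma p under 0.05 there was 1 higher, where 20.0% of all genes tested were, and 0 lower, where 20.9% were, and the methods' t-test with Benjamini-Hochberg adjustment called 0. Their differences ran from -0.15 for Polr2f, a small subunit of all the nuclear polymerases, to 0.32 for Polr2e, another, with a median of 0.028. The 6 subunits of polymerase I alone also had 0 past the fold and p limits by limma and 0 by the methods' t-test. By the adjusted p alone, 2 were higher, where 18.6% of all genes tested were, and 2 were lower, where 18.1% were. The highest was Polr1b, the second largest subunit, at 0.52, and the lowest was Twistnb, a stalk subunit, at -0.51. At the unadjusted p the counts were again 2 and 2. Of the 7 subunits of polymerase II alone, limma and the methods' t-test called 0 past both limits, and 1 was higher by the adjusted or the unadjusted p. That gene is Polr2d, a stalk subunit, at 0.65, while Polr2a, the catalytic subunit, was lowest at -0.14. Whether the members differ from the subunits of the other polymerases was not tested, since the members were chosen on this contrast.

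**Figure D4:**
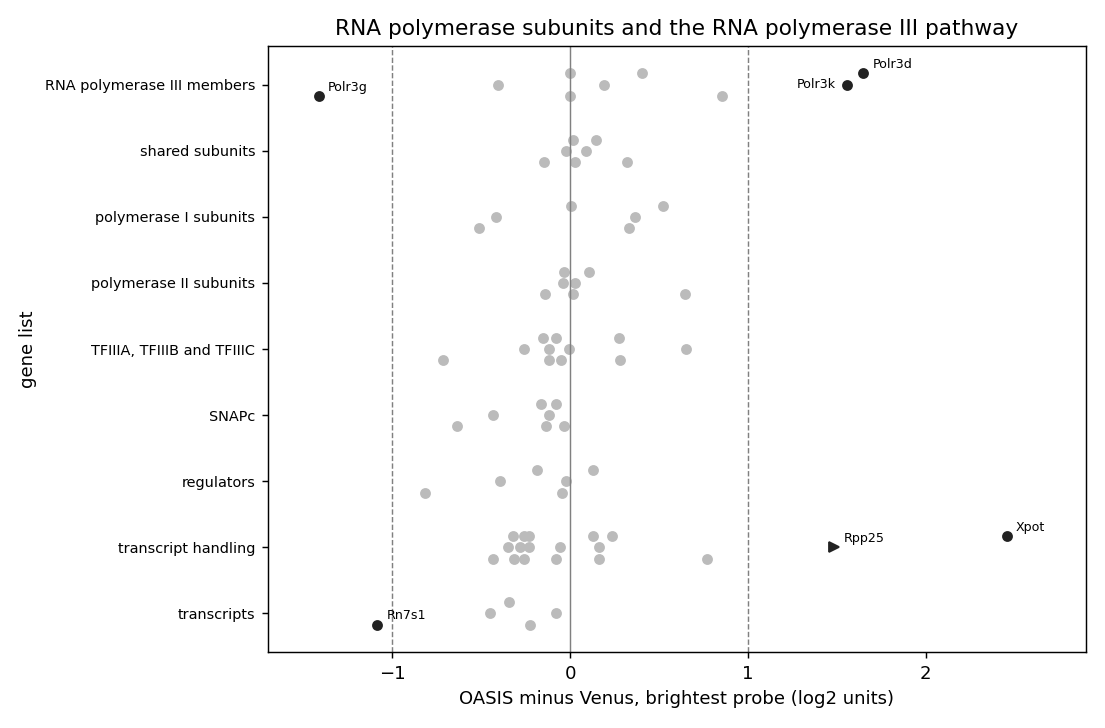
Difference between OASIS and Venus by the brightest probe (log2 units) for the members and for 8 lists of genes (rows), with black points past the fold and p limits, grey points short of them and dashed lines at 2-fold. The arrowhead sets Rpp25 against the lowest value well above background on the Venus arrays. Polr3d and Polr3k lie right of the upper line and Polr3g left of the lower one, and all shared subunits lie between -0.15 and 0.32.

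TFIIIA, TFIIIB and TFIIIC, the factors that place the polymerase on 5S and tRNA genes, had 0 of 11 genes past both limits by limma. Of all genes tested, 6.21% were past them upwards and 1.85% downwards. The methods' t-test called 0 of the 11. At an unadjusted limma p under 0.05, 2 were higher, where 20.0% of all genes tested were, and 1 was lower, where 20.9% were. The median of the 11 was -0.076. Tbp, the TATA-binding protein that all the polymerases use, was the highest at 0.65 (limma adjusted p = 0.0208). Gtf3c3, a TFIIIC subunit, was the lowest at -0.71 (limma adjusted p = 0.0218), but another of its probes gave 0.30. Brf1, the TFIIB-related part of TFIIIB, read -0.12 by its brightest probe and 0.67 by the other.

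SNAPc, the complex at U6-type promoters, with its activators Pou2f1 and Zfp143, had 0 of 7 genes past both limits by limma. Of all genes tested, 6.21% were past them upwards and 1.85% downwards. The methods' t-test called 0 of the 7. At the unadjusted limma p, 0 were higher, where 20.0% of all genes tested were, and 2 were lower, where 20.9% were. All 7 differences were below 0, as 56.1% of all differences were, and ran from -0.64 for Snapc5, a small subunit of the complex (limma adjusted p = 0.0295), to -0.034 for Pou2f1, with a median of -0.13. Pou2f1 was above 0, at 0.072 and 0.071, without Venus replicate 2 or OASIS replicate 1. Zfp143 gave -0.44 (limma adjusted p = 0.0825).

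Of 6 known regulators of RNA polymerase III, limma and the methods' t-test called 0 past both limits. By limma, 6.21% of all genes tested were past them upwards and 1.85% downwards. At the unadjusted limma p, 0 regulators were higher, where 20.0% of all genes tested were, and 2 were lower, where 20.9% were. The median of the regulators was -0.11. Myc, which activates the enzyme through TFIIIB, was the lowest at -0.82 (limma adjusted p = 0.0143), short of 2-fold. Its dimmer probe, which does not represent the gene, gave -1.01 (limma adjusted p = 0.0218) and was past both limits downwards. Trp53, a repressor, gave -0.39 (limma adjusted p = 0.0517), and Maf1, the general repressor of the enzyme, gave -0.18 (limma adjusted p = 0.24). The highest was Rb1, a further repressor, at 0.13, for which a second probe gave -0.77.

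Of 19 genes for the handling of the transcripts, which cover La, RNase P and tRNA splicing, CCA addition and export, 18 were tested. Past both limits were 2 upwards, where 6.21% of all genes tested were, and 0 downwards, where 1.85% were, and 1 of the 2 was tested only because it was well above background with OASIS. Xpot, exportin-t, which carries tRNA out of the nucleus, rose and read 0.85 and 1.03 with Venus and 3.54 and 3.25 with OASIS (log2 fold change 2.46, standard error 0.15, limma adjusted p = 0.00349). This is 5.49-fold, and the groups lay 2.22 apart at the nearest. The other gene is Rpp25, a protein of RNase P and RNase MRP, which with Venus was not well above background and which read -3.96 and -5.31 with OASIS. Set against the lowest value well above background on the Venus arrays, Rpp25 was 2.80-fold higher with OASIS, and 1.75-fold without OASIS replicate 1. Since it entered the test through the group where it is high, no p is given for it, and with the normexp correction its log2 difference was 0.66, short of 2-fold. Trnt1, which adds the CCA end to tRNA, gave 0.77 (limma adjusted p = 0.019). The lowest was Pop5, another protein of RNase P, at -0.43 (limma adjusted p = 0.0781). The median of this list was -0.15.

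Counted together, the lists of the other genes of the pathway had 51 of 52 genes tested, of which 3, Rpp25 included, were higher and 0 lower past both limits by limma, against 6.21% and 1.85% of all genes tested. With the filter on all arrays, which Rpp25 does not pass, 2 were higher. At an unadjusted p under 0.05 these were 7 higher and 9 lower, against 20.0% and 20.9% of all genes, and by the methods' t-test 1 and 0. Their median was -0.076, against -0.056 over all genes tested.

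RNAs that the enzyme makes were represented by 5 of the 13 symbols looked for. Rn7s1, a 7SL RNA of the signal recognition particle, fell, from 4.02 and 3.63 on the Venus arrays to 3.01 and 2.48 on the OASIS arrays (log2 fold change -1.08, standard error 0.24, limma adjusted p = 0.0379). It no longer passed without Venus replicate 1 (-0.89), without OASIS replicate 2 (-0.82), with no filter on dim probes (limma adjusted p = 0.135) or by the methods' t-test. The groups of Rn7sk, Rpph1, Rmrp and Vaultrc5 overlapped, with differences of -0.079, -0.35, -0.45 and -0.22. For all 5 RNAs the array numbered 2 read lower than the array numbered 1 in its group, by 0.23 to 0.53 with Venus and by 0.37 to 0.82 with OASIS. The part of this array difference in the values was not tested. Between arrays of the same number, OASIS read lower than Venus for all 5 RNAs. These differences ran from -1.01 to -0.061 at number 1 and from -1.16 to -0.096 at number 2, though the numbers were not taken as a pairing. Such RNAs lack a poly(A) tail, and the labelling kit used here primes cDNA at poly(A), so these probes may read them poorly. How well they read them was not tested, and RNA polymerase III output is therefore not read from these arrays.

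**Figure D5:**
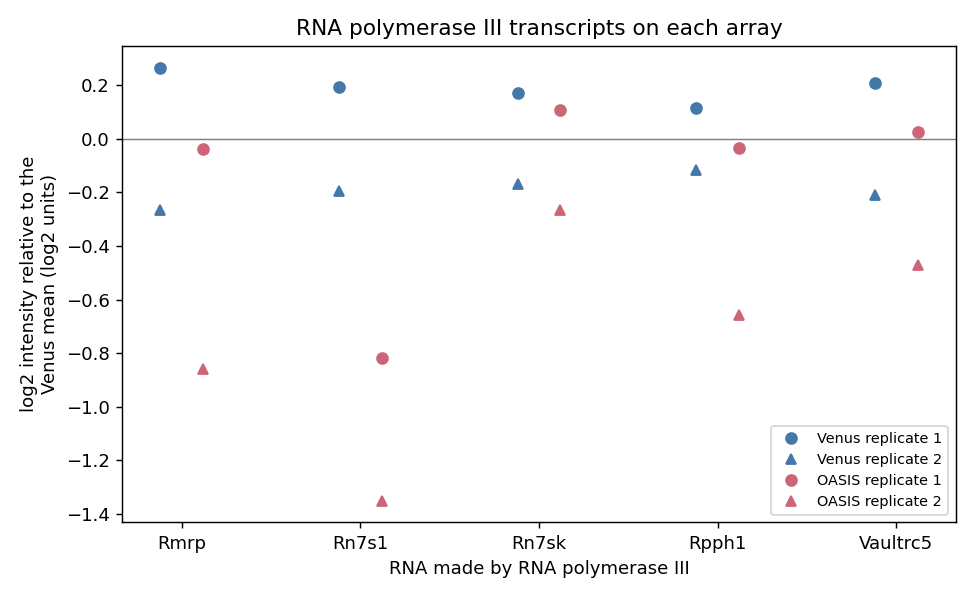
Log2 intensity of 5 RNAs made by RNA polymerase III on each array, relative to the Venus mean, with circles for replicate 1, triangles for replicate 2, blue for Venus and red for OASIS. Only for Rn7s1 do both OASIS points lie below both Venus points, and in every RNA and group the triangle lies below the circle.

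Annotation in the deposited table puts all 9 members in the RNA polymerase III complex of the Gene Ontology and in the KEGG pathway for cytosolic DNA sensing, in which the enzyme copies AT-rich DNA into RNA that is read by RIG-I. The term for positive regulation of interferon-beta production was given to 6 of them, all but Polr3e, Polr3gl and Polr3k.

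Of 15441 genes well above background on all 4 arrays, those nearest in pattern to the A_55_P2809542 probe of Polr3d, by the root mean square distance between centred log2 values, were Six5, Rom1, Kdelr2, Rrp1b and Khdrbs3. The distances ran from 0.011 to 0.037 log2 units over these 4 arrays. The differences of these genes were 1.67, 1.60, 1.72, 1.72 and 1.70, close to the 1.65 of Polr3d. Six5 is a homeobox transcription factor, Kdelr2 a receptor that returns proteins to the endoplasmic reticulum and Rrp1b a nucleolar protein. Likeness over so few arrays rests mainly on the size of the difference between groups.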

How the data were processed

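The members and gene lists were chosen with earlier results of these data known. The authors deposited, per array, spot intensity corrected for background by Agilent Feature Extraction 12.1.0.3, and a table of scaled intensity with gene symbols, bands and annotation terms. Normalization between arrays by the authors was not given in the sources used here.

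After removal of control and outlier spots, replicate spots were averaged per probe, and log2 values were taken relative to each array's 75th percentile. Probes counted as well above background where a share of 0.5 or more of their spots did. OASIS minus Venus was fitted by lmFit and eBayes of limma 3.58.1 (R 4.3.3; the data.table package was 1.17.8), with Benjamini-Hochberg adjustment over 31598 probes. The fold and p limits are those of the study's methods, which set them to pick candidates for secreted proteins. With 2 arrays a group, the smallest two-sided p of an exact permutation test is 0.333, so precision is limited by the number of arrays. For Rpp25, dim on Venus, the fold given sets the OASIS mean against the higher of its own value and the lowest value well above background, averaged over the Venus arrays. It is not a strict lower bound, since probes not well above background can read above that lowest value.

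By rule, the text names every member probe and, of each list, the genes past the limits and the highest and lowest gene. Other values were chosen after they were seen (second probes, Brf1, Zfp143, Trp53, Maf1, Trnt1 and the remaining transcripts). Bands are the deposited table's. Promoter and protein sequences were not analysed here, and a few genes under this rule are not reported here. The 15 to 16 alternatives were fixed with the design and comprised quantile and median scaling, normexp (offset 50, on median spot signals), the authors' scaled intensity, no filter, a filter on all arrays, outlier spots kept, the mean of probes (genes only), the methods' t-test (which the study names for comparing groups, not for arrays), an eBayes trend, an adjusted p under 0.05, a replicate block and each array left out.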

Additional observations from a re-analysis of the deposited data

How the results depend on the processing

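Of the counts past the limits, 1014 genes higher became 652 with normexp and 334 with the methods' t-test, and 302 lower became 137 and 66. Leaving out each array in turn gave 279 to 474 lower, with 474 without OASIS replicate 2. The pathway lists kept a count of 3 higher and 0 lower in most settings, with 2 higher under normexp or the filter on all arrays and 1 by the methods' t-test. Members higher by the brightest probe numbered 2 in all 16 settings. The count of members lower, 1 (Polr3g), was 0 by the mean of probes and by the methods' t-test, and ranged from 0 to 1 when each array was left out, with 0 without Venus replicate 1. The causes were not tested, beyond the change of the brightest Polr3g probe given above. Rpp25, Cd2ap and Lrp2 failed the limits by the methods' t-test. Across scalings the median difference of all genes ran from -0.077 to -0.034. With the replicate number as a block, 1018 genes were higher and 327 lower, the pathway counts stayed 3 and 0 and the members 2 and 1. Same-numbered samples deviated together only weakly (r = 0.26 over 31590 probes, which are not independent, and 2 pairs), and the numbers were not taken as a pairing. A block for slide was not run, since there was 1 slide. The dimmest Polr3e probe, A_52_P231410, gave 0.97 with normexp in place of 1.57.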

Other observations

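The genes next to each member on its chromosome, by the gene order of the RefSeq annotation of another build, were looked at after the members' values had been seen. Of 18 neighbours 13 were tested, and 2 rose past the limits, where 6.21% of all genes tested were, while 0 fell, where 1.85% were. They are Cdr2, next to Polr3e (log2 fold change 1.62, standard error 0.12, limma adjusted p = 0.00515), and Lysmd3, next to Polr3g (1.80, standard error 0.15, limma adjusted p = 0.00624), whose own values were lower with OASIS. Mblac2, on the other side of Polr3g, gave -0.71 (limma adjusted p = 0.0239), and Pcmtd2, next to Polr3k, gave 0.85 (limma adjusted p = 0.0348). Neither neighbour of Polr3d was tested. Polr3c and Polr3gl lie in the same band with 8 protein-coding genes between them, and their differences were -0.00032 and 0.85 by the brightest probes.

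Some markers of the cells gave values that depend on the probe. Wt1, a transcription factor of podocytes, rose by its brightest probe (log2 fold change 4.62, limma adjusted p = 0.00215) and read -0.16 by the other, and its log2 fold change was 2.68 with normexp and 2.23 by the mean of its probes. Cd2ap, an adaptor of the slit diaphragm, gave 1.09 (limma adjusted p = 0.00832) by its brightest probe and -0.37 and 0.31 by the others, while Actn4, an actin crosslinker, was the lowest of the tested podocyte markers at -0.22. Lrp2, megalin of the proximal tubule, gave 1.62 by its brightest probe (limma adjusted p = 0.0148), and 1.68 by a second probe, while the remaining 3 of its 5 probes lay between -0.16 and 0.012. Aqp2, the water channel of the collecting duct, was the lowest of that list at -0.39. By the mean of probes, Cd2ap (0.34) and Lrp2 (0.61) were no longer past 2-fold.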
